A study of Mus musculus with 11 samples.

Results

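The genes described here are 10 marker genes of endothelial cells, the cells that line blood and lymph vessels: the receptors Kdr, Flt1, Tek and Tie1, the junction and surface genes Cdh5, Pecam1, Esam and Emcn, the receptor subunit gene Ramp2, and the secreted factor gene Egfl7. Every probe set that carried 1 of these symbols alone was taken, whatever its level. This gave 17 of the 45037 probe sets tested, 4 each for Flt1 and Egfl7, 2 for Cdh5 and 1 for each other gene, and the 10 genes stand beside 18193 genes in all. A further 2 probe sets, shared by Ramp2 and Vps25, were not members.

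The RNA came from cells that were sorted for green fluorescent protein (GFP) out of the muscles of Pax3GFP/+ mice on a C57BL/6J background, and 11 Affymetrix Mouse430_2 arrays were made from it. Postnatal day 1 (P1, 4 arrays) and day 12 (P12, 4 arrays) were trunk muscle with satellite cells that the labels call proliferant, and day 28 (P28, 3 arrays) was abdominal, pectoral and intercostal muscle with satellite cells. All 3 ages carry 1 GFP allele at Pax3, a transcription factor gene of the muscle lineage, so no array is of wild-type mice, and the gate was GFP with dead cells removed by propidium iodide. By their titles the arrays of each age are biological replicates, but the number of animals in each and their sex are not stated, so p-values measure the spread between these arrays.

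Satellite cells, the resident stem cells of skeletal muscle, lie on the fibre close to its capillaries. Endothelial cells are kept alive and guided by vascular endothelial growth factor (VEGF), which acts through Kdr and Flt1, and by the angiopoietins, which act through Tek with Tie1 as its partner. They join one another through VE-cadherin (Cdh5), Pecam1 and Esam. The 10 genes were taken here as endothelial markers, and whether satellite cells also express any of them was not tested. In bulk RNA, fewer cells of a type and less RNA per cell cannot be told apart.

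Several properties of the arrays bear on every value. Median log2 values were 5.50 to 5.58 on the 11 arrays, and the satellite cell transcription factor gene Pax7 averaged 10.75 at P1, 10.78 at P12 and 10.72 at P28. Other satellite cell markers, given further below, did not all stay level. For Gapdh, the control at the 3' end exceeded that at the 5' end by more where RNA was degraded or primed from the 3' end, and this log2 gap was 1.62 to 2.79 at P1, 1.32 to 3.05 at P12 and 0.79 to 0.99 at P28. Replicates 1 and 2 of P1 and P12 had the larger gaps (array set 1, 2.59 to 3.05) and replicates 3 and 4 the smaller (array set 2, 1.32 to 1.69). The internal names of all P28 arrays carry a year-like suffix that differs from that of all P1 and P12 arrays and begin with the code of P1, whereas the title and the age label of each say P28. Age, muscles, 3' bias and a possible batch therefore cannot be told apart for P28. The X-linked RNA Xist was at 11.29 in P1 replicate 1, at 5.82 to 5.96 in P1 replicates 2 to 4, and at 10.59 to 11.81 at the later ages. The Y-linked genes Kdm5d and Eif2s3y were highest where Xist was low. P1 replicates 2 to 4 read 7.30 to 7.5 for Kdm5d and 9.34 to 9.64 for Eif2s3y, above every other array. Among the arrays with high Xist, the Y-linked values also varied. For Kdm5d, P1 replicate 1 read 5.76, the P12 arrays 6.28 to 6.72 and the P28 arrays 4.23 to 5.32. For Eif2s3y these readings were 7.93, 8.49 to 8.79 and 6.96 to 7.99. Xist, Kdm5d and Eif2s3y all differed between the ages, and within P1 replicate 1 alone had high Xist. The sex of the animals therefore cannot be fully told apart from age.

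The endothelial genes were higher at P28 than at both earlier ages and did not pass the test between P12 and P1. In P28 against P12, 13 of the 17 probe sets rose and 0 fell (limma, Benjamini-Hochberg adjusted p under 0.05 over 45037 probe sets), where 13.5% of all probe sets rose and 15.9% fell. Those 13 were every probe set of the 9 genes other than Egfl7, with increases of 2.28-fold to 8.76-fold. The same 13 had all 3 P28 arrays above all 4 P12 arrays and 0 had them all below, against 15.4% and 19.9% of all probe sets. In P28 against P1, 15 of the 17 rose and 0 fell, where 17.6% of all probe sets rose and 17.4% fell, and 15 had P28 arrays that lay wholly above those of P1 and 0 wholly below, against 19.3% and 21.4% of all. The median log2 difference of the 17 was 1.56 in P28 against P12 and 1.91 in P28 against P1, while that of all probe sets was -0.05 in both. In P12 against P1, 0 of the 17 passed (1 at an unadjusted p under 0.05), where 3.25% of all rose and 1.59% fell.

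**Figure D1:**
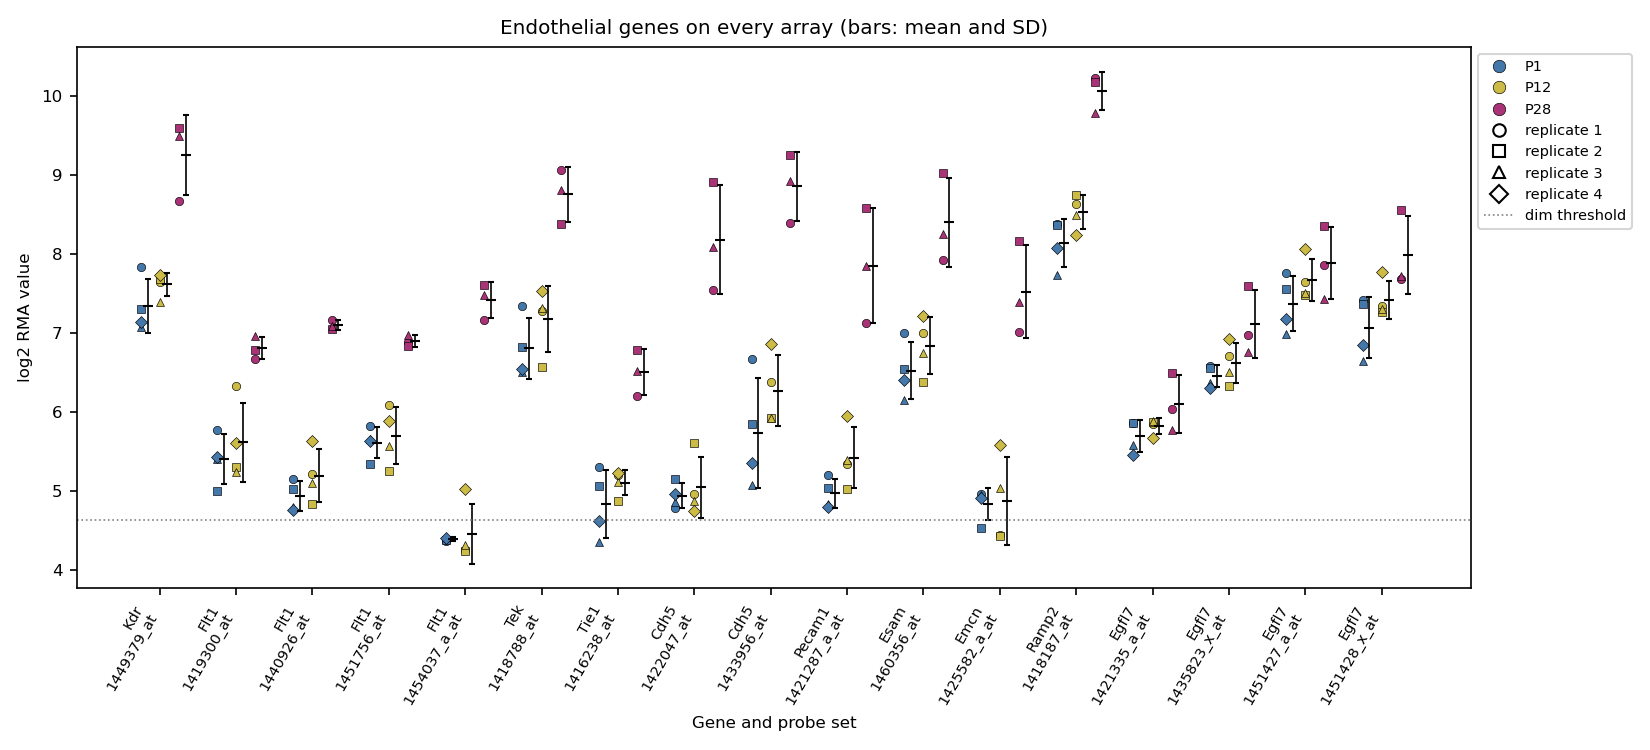
Log2 RMA values of the 17 probe sets of the 10 endothelial genes on each array, in age order P1, P12 and P28, with 1 point per array, its shape giving the replicate, and a bar at the mean ± SD of each age; the dotted line is the level set as dim. For the 13 probe sets outside Egfl7 the 3 P28 points lie above every P1 and P12 point, whereas the P1 and P12 points overlap for all 17.

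Kdr is the main signalling receptor for VEGF on endothelial cells. Its probe set 1449379_at read 7.83, 7.30, 7.08 and 7.14 in the P1 arrays, 7.64, 7.68, 7.40 and 7.74 in the P12 arrays, and 8.67, 9.60 and 9.49 in the P28 arrays. The P28 arrays were all above the rest, with replicate 1 the lowest of them, and P1 and P12 overlapped. Kdr rose by 1.64 ± 0.22 (SE, log2; 95% interval 1.16 to 2.12), or 3.11-fold, in P28 against P12 (adjusted p = 1.11e-04), and by 1.91 ± 0.22, or 3.76-fold, in P28 against P1 (adjusted p = 2.06e-05). In P12 against P1 the difference of 0.27 did not pass (adjusted p = 0.541).

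Flt1 encodes the high-affinity VEGF receptor, which also exists as a soluble form that binds VEGF without signalling, and it had 4 probe sets. The probe set 1454037_a_at read 4.37, 4.38, 4.42 and 4.41 at P1, 4.26, 4.24, 4.32 and 5.03 at P12, and 7.17, 7.60 and 7.48 at P28. Its means at P1 (4.40) and P12 (4.46) were under 4.64, the level set here as dim (1 log2 unit above the highest mean of the bacterial Trp controls), so this probe set was near background at both ages and clearly above it at P28. It was the only member probe set with a mean under that level at any age.

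The probe set 1440926_at read 5.16, 5.02, 4.80 and 4.76 at P1, 5.22, 4.83, 5.10 and 5.63 at P12, and 7.17, 7.05 and 7.09 at P28, where the arrays lay close together (SD 0.06). The probe set 1419300_at read 5.77, 5.0, 5.40 and 5.44 at P1, 6.33, 5.30, 5.24 and 5.61 at P12, and 6.68, 6.79 and 6.96 at P28. The fourth, 1451756_at, read 5.82, 5.35, 5.66 and 5.64 at P1, 6.09, 5.26, 5.58 and 5.89 at P12, and 6.89, 6.83 and 6.97 at P28. No P28 value of any Flt1 probe set overlapped an earlier age. In P28 against P12, 1454037_a_at rose at least 6.42-fold (adjusted p = 1.51e-07), a lower bound with each P12 array counted at 4.64 or at its own value where higher. The increase was 1.91 ± 0.17 for 1440926_at (3.75-fold, adjusted p = 3.47e-06), 1.20 ± 0.18 for 1451756_at (2.29-fold, adjusted p = 2.36e-04) and 1.19 ± 0.24 for 1419300_at (2.28-fold, adjusted p = 0.00189). Which Flt1 transcripts each of them reads is not given by the annotation used here. In P28 against P1, 1454037_a_at rose at least 6.86-fold, by the same kind of bound, and the other 3 rose by 1.28 to 2.17 on the log2 scale, and in P12 against P1 none passed (0.07 to 0.26, adjusted p = 0.421 to 0.894).

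Tek, also known as Tie2, is the receptor for the angiopoietins. Its probe set 1418788_at read 7.34, 6.82, 6.51 and 6.55 at P1, 7.28, 6.57, 7.32 and 7.53 at P12, and 9.07, 8.38 and 8.81 at P28. P28 was wholly above the other ages, and here replicate 2 was the lowest of the P28 arrays and replicate 1 the highest. Tek rose by 1.58 ± 0.25 (2.98-fold, adjusted p = 3.28e-04) in P28 against P12 and by 1.95 ± 0.25 (3.86-fold, adjusted p = 4.13e-05) in P28 against P1.

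Tie1 is the related receptor that pairs with Tek and modulates its signalling. Its probe set 1416238_at read 5.31, 5.07, 4.35 and 4.63 at P1, 5.20, 4.88, 5.12 and 5.23 at P12, and 6.21, 6.79 and 6.52 at P28. Again the P28 arrays did not overlap the others, while P1 replicate 1 lay above the P12 arrays, P1 replicate 2 among them and P1 replicates 3 and 4 below them. The increase was 1.40 ± 0.21 (2.64-fold, adjusted p = 2.33e-04) in P28 against P12 and 1.67 ± 0.21 (3.18-fold, adjusted p = 3.78e-05) in P28 against P1. The differences in P12 against P1 were 0.37 for Tek (adjusted p = 0.431) and 0.27 for Tie1 (adjusted p = 0.516).

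Cdh5, or VE-cadherin, is the adhesion molecule of endothelial adherens junctions. Its probe set 1422047_at read 4.79, 5.16, 4.86 and 4.96 at P1, 4.96, 5.60, 4.88 and 4.75 at P12, and 7.54, 8.91 and 8.09 at P28. The first 2 ages lay close together near 5, and the P28 arrays were above them and spread widely (SD 0.69, n = 3, against 0.38 at P12, n = 4). The increase was 3.13 ± 0.27 or 8.76-fold in P28 against P12 (adjusted p = 2.41e-06) and 3.24 ± 0.27 or 9.42-fold in P28 against P1 (adjusted p = 9.85e-07).

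The other Cdh5 probe set, 1433956_at, read 6.67, 5.85, 5.07 and 5.35 at P1, 6.38, 5.93, 5.92 and 6.86 at P12, and 8.39, 9.25 and 8.93 at P28. Both probe sets put P28 wholly above the earlier ages, and at P1 this one spread more (SD 0.70, against 0.16 for 1422047_at). It rose by 2.58 ± 0.34 (5.99-fold, adjusted p = 7.95e-05) in P28 against P12 and by 3.12 ± 0.34 (8.69-fold, adjusted p = 1.05e-05) in P28 against P1. In P12 against P1 the Cdh5 probe sets differed by 0.11 and 0.54, and neither passed (adjusted p = 0.884 and 0.399).

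Pecam1, also called CD31, is an adhesion molecule of endothelial cell contacts that platelets and leukocytes also carry. Its probe set 1421287_a_at read 5.21, 5.04, 4.84 and 4.80 at P1, 5.34, 5.03, 5.39 and 5.95 at P12, and 7.13, 8.58 and 7.85 at P28. All P28 arrays were above all others, and they spread widely (SD 0.73, n = 3), with replicate 2 the highest. Pecam1 rose by 2.43 ± 0.28 (5.38-fold, adjusted p = 2.92e-05) in P28 against P12 and by 2.88 ± 0.28 (7.36-fold, adjusted p = 4.12e-06) in P28 against P1.

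Esam is an immunoglobulin-family adhesion molecule of endothelial tight junctions, also found on platelets. Its probe set 1460356_at read 7.01, 6.54, 6.16 and 6.40 at P1, 7.0, 6.38, 6.75 and 7.22 at P12, and 7.93, 9.03 and 8.25 at P28. The lowest P28 array, replicate 1, was above the highest P12 array, replicate 4, and P1 and P12 overlapped. Esam rose by 1.56 ± 0.26 (2.95-fold, adjusted p = 5.97e-04) in P28 against P12 and by 1.87 ± 0.26 (3.67-fold, adjusted p = 1.04e-04) in P28 against P1.

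Emcn, or endomucin, is a sialomucin of the surface of capillary and venous endothelium. Its probe set 1425582_a_at read 4.97, 4.54, 4.95 and 4.91 at P1, 4.44, 4.44, 5.04 and 5.59 at P12, and 7.02, 8.17 and 7.39 at P28. The P12 arrays of array set 1 were the lowest 2 of all 11 and those of array set 2 the highest before P28, yet all stayed below the P28 arrays. Emcn rose by 2.65 ± 0.29 (6.27-fold, adjusted p = 1.82e-05) in P28 against P12 and by 2.68 ± 0.29 (6.41-fold, adjusted p = 1.01e-05) in P28 against P1. Of the members it had the smallest difference in P12 against P1, 0.03 (adjusted p = 0.970). For Pecam1 and Esam that difference was 0.45 (adjusted p = 0.388) and 0.31 (adjusted p = 0.565).

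Ramp2 encodes a membrane partner that turns the receptor Calcrl into an adrenomedullin receptor. Its probe set 1418187_at read 8.39, 8.36, 7.74 and 8.08 at P1, 8.64, 8.74, 8.50 and 8.24 at P12, and 10.23, 10.17 and 9.78 at P28. P28 was wholly above the rest. P12 replicate 4, the highest P12 array on 12 of the 17 probe sets, was the lowest P12 array here. Ramp2 rose by 1.53 ± 0.18 (2.89-fold, adjusted p = 3.61e-05) in P28 against P12 and by 1.92 ± 0.18 (3.79-fold, adjusted p = 3.26e-06) in P28 against P1. It was the member with an unadjusted p under 0.05 in P12 against P1, a difference of 0.39 (95% interval 0.03 to 0.75, unadjusted p = 0.0355, adjusted p = 0.223). The 2 probe sets shared by Ramp2 and Vps25 rose less in P28 against P12, by 0.66 (adjusted p = 0.020) and 0.64 (adjusted p = 0.009), and their signal cannot be assigned to either gene.

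**Figure D2:**
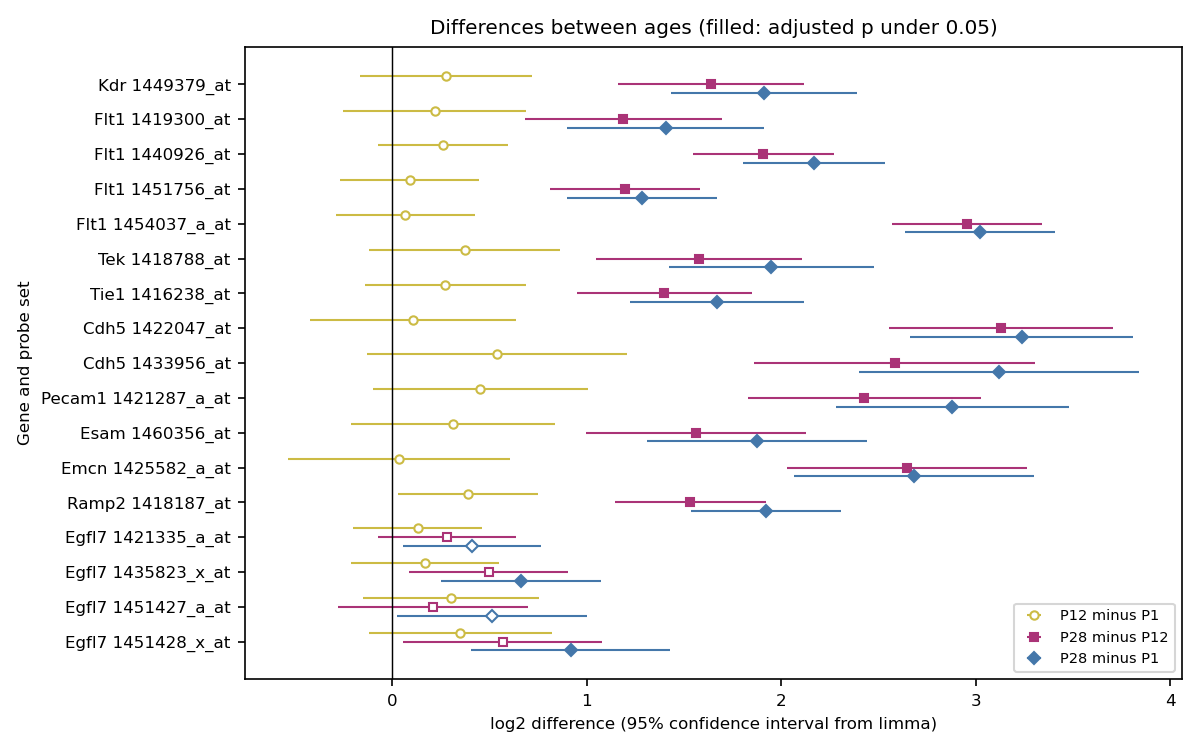
Log2 difference of each of the 17 probe sets with its 95% interval from the limma fit, for P12 minus P1, P28 minus P12 and P28 minus P1, with filled symbols at an adjusted p under 0.05. The intervals of the 13 probe sets outside Egfl7 lie above 0 in both comparisons with P28, from 1.19 for Flt1 1419300_at to 3.13 for Cdh5 1422047_at in P28 against P12, while the Egfl7 estimates are 0.21 to 0.57 there, and the points of Flt1 1454037_a_at are fitted values of a probe set near background at P1 and P12.

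Egfl7 encodes a secreted protein with epidermal growth factor-like domains that endothelial cells lay down in their matrix, and its transcript hosts the microRNA miR-126. It was the member gene with no probe set that passed in P28 against P12. The probe set 1451427_a_at read 7.75, 7.56, 6.99 and 7.18 at P1, 7.64, 7.48, 7.51 and 8.06 at P12, and 7.87, 8.35 and 7.44 at P28. The ages overlapped, and P28 replicate 3 was below every P12 array. The probe set 1451428_x_at read 7.42, 7.37, 6.65 and 6.84 at P1, 7.34, 7.26, 7.30 and 7.78 at P12, and 7.69, 8.56 and 7.72 at P28, so that P28 cleared all P1 arrays and 3 of the 4 P12 arrays.

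The remaining Egfl7 probe sets also overlapped between P28 and P12. The first, 1435823_x_at, read 6.59, 6.56, 6.37 and 6.30 at P1, 6.71, 6.33, 6.51 and 6.92 at P12, and 6.98, 7.60 and 6.76 at P28. The other, 1421335_a_at, read 5.86, 5.86, 5.59 and 5.46 at P1, 5.85, 5.88, 5.89 and 5.67 at P12, and 6.04, 6.49 and 5.78 at P28. In all 4 probe sets P28 replicate 2 was the highest array of the series. The differences in P28 against P12 were 0.21 ± 0.23 (95% interval -0.28 to 0.70, adjusted p = 0.537) for 1451427_a_at, 0.28 ± 0.17 (-0.08 to 0.64, adjusted p = 0.233) for 1421335_a_at, 0.49 ± 0.19 (0.09 to 0.90, adjusted p = 0.0668) for 1435823_x_at and 0.57 ± 0.24 (0.06 to 1.08, adjusted p = 0.0901) for 1451428_x_at. The upper bounds of all 4 intervals lie under the smallest increase estimated for another member, 1.19 for Flt1 1419300_at. That estimate has its own 95% interval of 0.68 to 1.69, which the intervals of 1451427_a_at, 1435823_x_at and 1451428_x_at overlap. In P28 against P1 the 2 probe sets of the _x_at type, whose probes can bind other transcripts, rose by 0.92 ± 0.24 (adjusted p = 0.00824) and 0.66 ± 0.19 (adjusted p = 0.0151), and the other 2 did not pass (0.51, adjusted p = 0.0974, and 0.41, adjusted p = 0.0711).

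Several Egfl7 calls changed when a single array was left out, which was not so for any other member in the comparisons with P28, while the call of 1451428_x_at in P28 against P1 was kept each time. Without P12 replicate 4 or without P28 replicate 3, 1435823_x_at passed in P28 against P12 (0.60 and 0.67). Without P28 replicate 2, the same probe set lost its call in P28 against P1 (0.42, adjusted p = 0.088) and the difference of 1451427_a_at in P28 against P12 was -0.024. Without P28 replicate 3, 1421335_a_at (0.57) and 1451427_a_at (0.74) passed in P28 against P1, and without P1 replicate 1 so did 1451427_a_at (0.64). Array weights also gave both these probe sets a call in that comparison (0.50 and 0.63).

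Promoters of members that rose together are set beside that of Egfl7, because factors of the ETS family, which bind a GGAA core, are known regulators of most endothelial genes, often together with Forkhead factors. The RefSeq promoter table (GRCm38.p6) held 8 windows for 6 members, namely Kdr, Flt1, Tek, Tie1, Emcn and 3 for Egfl7; each window runs from 250 bases before to 50 after a start, 300 bases in all. The windows below are Flt1 at chr5:147725962-147726261 (minus strand), Tek at chr4:94739039-94739338 (plus strand), Tie1 at chr4:118489800-118490099 (minus strand), Emcn at chr3:137340828-137341127 (plus strand) and the first Egfl7 window at chr2:26580833-26581132 (plus strand). Each is written 5′ to 3′ on the gene's strand, with matches to the longer ETS-type letters AGGAAG, or to their reverse complement, in capitals.
Flt1: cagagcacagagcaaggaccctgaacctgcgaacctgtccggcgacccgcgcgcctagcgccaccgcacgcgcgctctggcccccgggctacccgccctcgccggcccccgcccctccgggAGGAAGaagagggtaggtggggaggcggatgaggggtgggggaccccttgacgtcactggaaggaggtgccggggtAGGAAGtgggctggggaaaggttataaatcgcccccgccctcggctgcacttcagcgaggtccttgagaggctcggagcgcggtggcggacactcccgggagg
Tek: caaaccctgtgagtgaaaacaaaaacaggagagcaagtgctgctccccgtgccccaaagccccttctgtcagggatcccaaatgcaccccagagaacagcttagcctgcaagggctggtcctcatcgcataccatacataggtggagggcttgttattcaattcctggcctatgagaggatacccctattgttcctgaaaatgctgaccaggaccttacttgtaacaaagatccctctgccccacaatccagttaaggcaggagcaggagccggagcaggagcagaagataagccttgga
Tie1: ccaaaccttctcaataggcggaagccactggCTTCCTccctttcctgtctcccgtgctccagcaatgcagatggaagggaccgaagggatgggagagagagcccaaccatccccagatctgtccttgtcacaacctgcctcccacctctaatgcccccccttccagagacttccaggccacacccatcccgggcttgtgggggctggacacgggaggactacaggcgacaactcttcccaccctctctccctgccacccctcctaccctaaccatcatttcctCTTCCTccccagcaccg
Emcn: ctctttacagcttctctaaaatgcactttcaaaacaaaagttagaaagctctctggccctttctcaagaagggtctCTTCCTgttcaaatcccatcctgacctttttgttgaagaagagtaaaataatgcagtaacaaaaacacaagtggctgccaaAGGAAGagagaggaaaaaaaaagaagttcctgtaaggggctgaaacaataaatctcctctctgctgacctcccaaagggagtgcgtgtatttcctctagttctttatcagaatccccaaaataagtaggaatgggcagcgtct
Egfl7: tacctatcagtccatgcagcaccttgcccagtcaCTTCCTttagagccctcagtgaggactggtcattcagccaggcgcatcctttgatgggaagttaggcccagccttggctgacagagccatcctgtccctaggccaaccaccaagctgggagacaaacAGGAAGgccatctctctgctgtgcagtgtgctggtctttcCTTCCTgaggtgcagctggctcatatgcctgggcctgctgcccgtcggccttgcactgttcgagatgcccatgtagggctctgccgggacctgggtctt

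On both strands, GGAA was found in 8 of the 8 member windows and in 96.0% of the 32851 promoters of the table, so the core alone sets no gene apart. AGGAAG, which contains GGAA, was found in 5 of the 8 windows and in 35.4% of all promoters. It had 2 matches each in Flt1, Tie1 and Emcn, 3 and 2 in the first and second Egfl7 windows, and 0 in the windows of Kdr and Tek and the third Egfl7 window. The Forkhead and ETS composite letters AACAGGAA, which contain GGAA and can overlap AGGAAG, were found in 2 of the 8 windows, those of Emcn and the first of Egfl7, and in 2.65% of all promoters. The GATA-type letters AGATAA were found in the Tek window alone among the 8, and in 11.2% of all promoters. Any part of these matches in the differences between the ages was not tested. Which of the 3 Egfl7 starts is used in these cells was not measured. A match is a run of letters and not a shown binding site.

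Within an age many members deviated in the same direction on the same arrays. Averaged over 1 probe set per gene, the 10 genes were at 6.63, 6.24, 5.94 and 6.07 in the P1 arrays, 6.57, 6.24, 6.45 and 6.83 in the P12 arrays and 7.94, 8.52 and 8.14 in the P28 arrays. P1 replicate 1 was the highest P1 array on 15 of the 17 probe sets, P12 replicate 4 the highest P12 array on 12, and P28 replicate 2 the highest P28 array on 12. The 17 include 4 probe sets each of Flt1 and Egfl7, and the share of all probe sets was not computed. P1 replicate 1 was the highest P1 array for the platelet (0.61), mural (0.25) and satellite cell (0.23) marker means too, as deviations from the age mean. For the fibroblast marker mean it was P1 replicate 2 (0.31). P1 replicate 1 is also the P1 array with the high Xist value given above, and without it 0 probe sets passed in P12 against P1, 13 rose in P28 against P12 and 16 in P28 against P1. The part of sex in these values was not tested.

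Pearson's r between pairs of members over the 11 arrays had a median of 0.91 (45 pairs, 0.48 to 0.99), a description of arrays that share their age, RNA and hybridisation. After each age's mean was taken out, the median was 0.44, and 3 of the 45 pairs were below 0, the lowest at -0.43. The same median was not taken over other sets of genes. On these deviations Esam (0.97), Cdh5 (0.96) and Tie1 (0.91) followed the mean of the 10 members most closely, then Pecam1 (0.85), Egfl7 (0.84), Kdr (0.77) and Emcn (0.64). Tek (0.48), Flt1 (0.43) and Ramp2 (0.16) followed it least. Each gene is itself part of the mean it is set against, which raises its r. With that limit, the value of Egfl7 on deviations lay within the range of the other members. Over all arrays its r with the mean, 0.66, was below the 0.93 to 0.99 of the other 9.

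**Figure D3:**
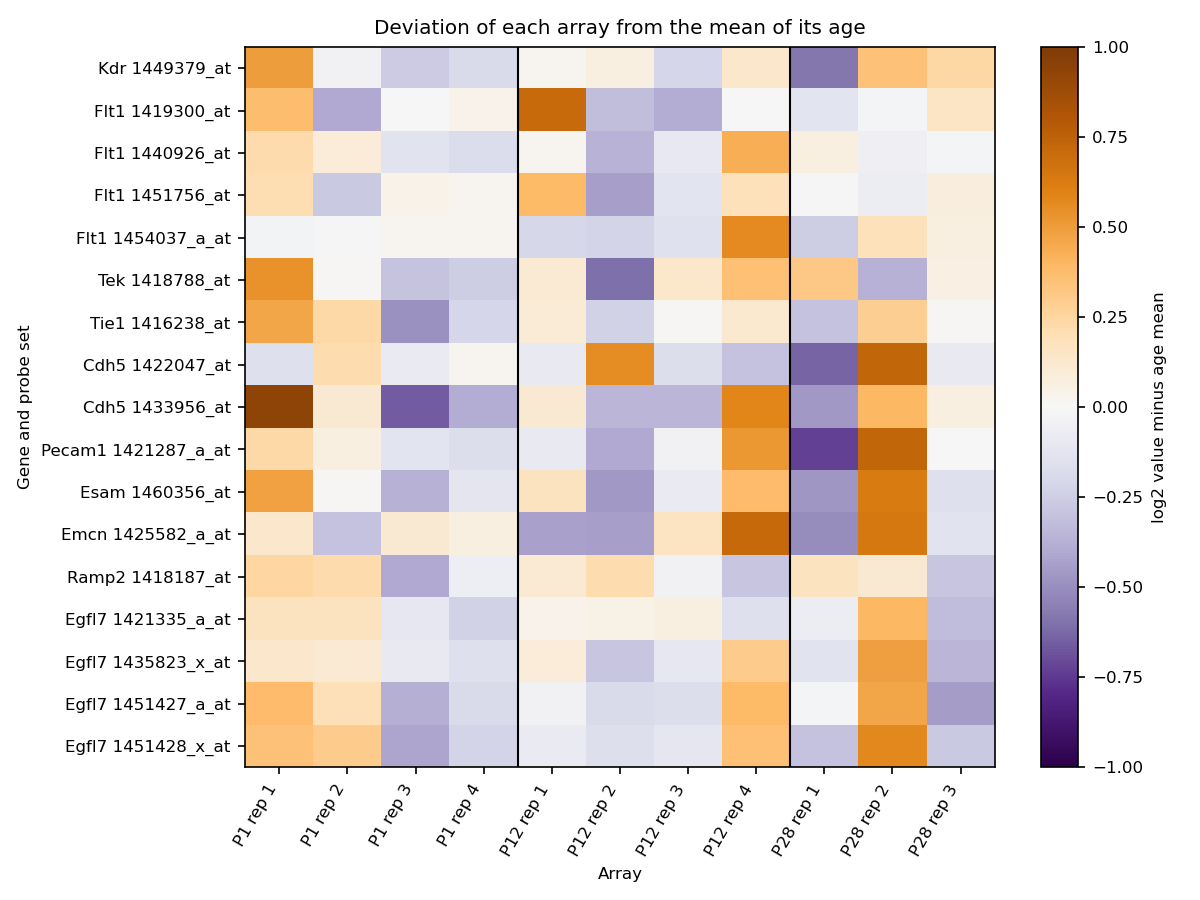
Deviation of each of the 17 probe sets from its mean at that age, on each of the 11 arrays in age order P1, P12 and P28, as colours on a log2 scale (orange above the mean, purple below). P1 replicate 1, P12 replicate 4 and P28 replicate 2 are orange in most rows, with Tek and 3 of the 4 Flt1 probe sets as the exceptions at P28 replicate 2.

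The members were also compared within each array set. At P1 both arrays of set 2 lay below both arrays of set 1 on 12 of the 17 probe sets and above them on 1, while at P12 they lay below on 2 and above on 4. The share of all probe sets was not computed for these counts, so they do not set the members apart. The mean of the satellite cell markers also lay lower in set 2 at P1 (deviations 0.23 and 0.16 in set 1, -0.28 and -0.11 in set 2). That of the leukocyte markers overlapped (0.08 and -0.03, against -0.03 and -0.02). Within array set 1, 0 of the 17 passed. Within array set 2, 5 passed in P12 against P1: Cdh5 1433956_at (1.18, adjusted p = 0.042), Tek (0.90, adjusted p = 0.018), Pecam1 (0.85, adjusted p = 0.045), Egfl7 1451428_x_at (0.79, adjusted p = 0.049) and Tie1 (0.69, adjusted p = 0.048). These 4 arrays were 2 against 2. The share of all probe sets that passed within each array set was not taken, so these counts cannot be set against it. The difference between the sets was tested as an interaction of age and array set, and 0 of the 45037 probe sets passed (members, adjusted p = 0.695 to 0.998). At an unadjusted p under 0.05, 9 of the 17 member probe sets differed between the sets, against 7.10% of all probe sets, with the lowest p for Egfl7 1451428_x_at (0.005), Tie1 (0.007) and Tek (0.010). Over both array sets all 17 differences in P12 against P1 were positive, 0.03 to 0.54 with a median of 0.27 (all probe sets, 0.01), 0 probe sets had P12 arrays wholly above or wholly below those of P1 (6.18% and 4.16% of all did), and none passed with array set as a block.

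Other genes of the endothelium were followed through 6 lists, 125 genes without the members, each read by its brightest probe set and tested over 18193 genes, 15.7% of which rose and 15.7% fell in P28 against P12. Of the 125, 76 rose and 7 fell in P28 against P12, with a median log2 difference of 0.85 against -0.03 for all genes. In P28 against P1, 85 rose and 5 fell (20.1% and 16.4% of all genes), and in P12 against P1, 8 rose and 1 fell (4.53% and 2.04% of all genes).

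**Figure D4:**
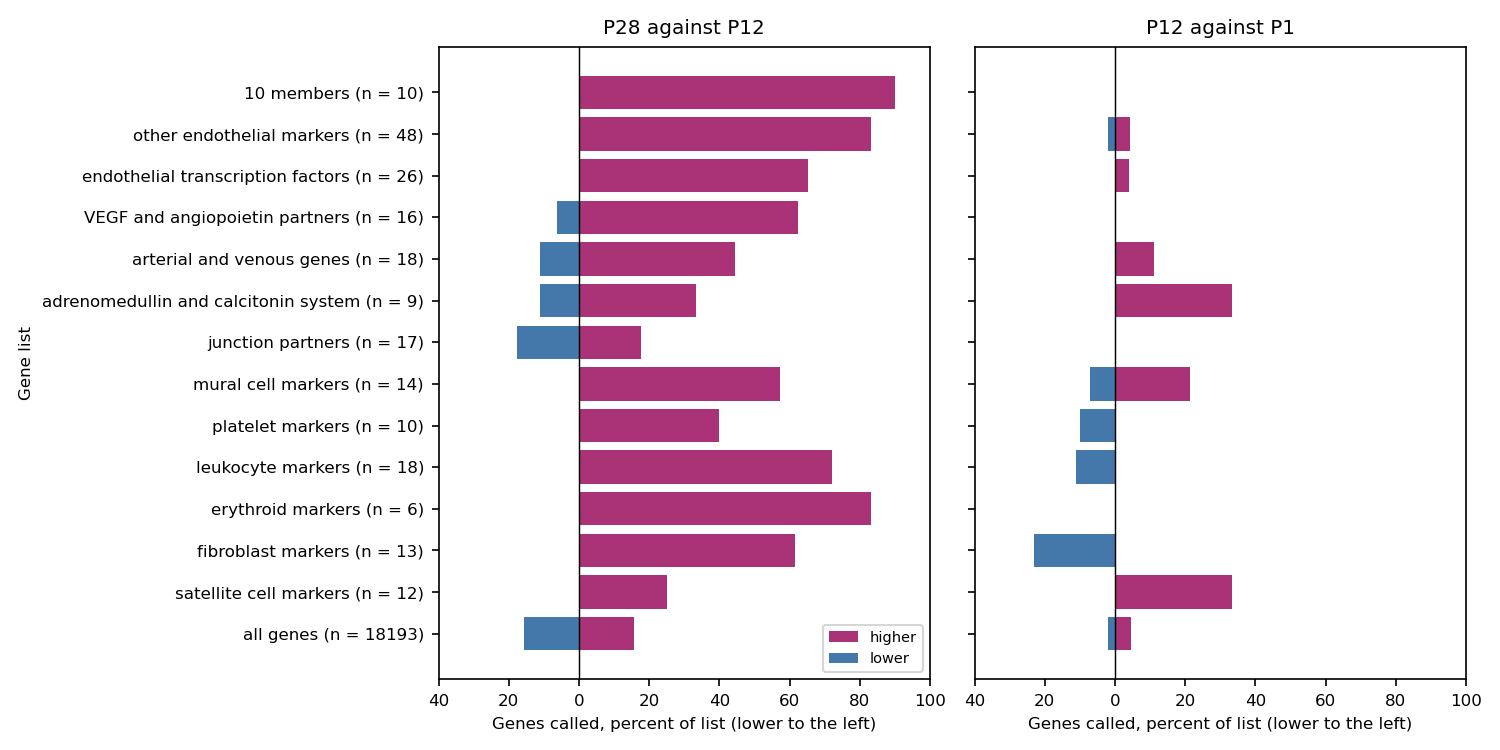
Percent of the genes of each list that were higher (bars to the right) or lower (to the left) at an adjusted p under 0.05, in P28 against P12 in the left panel and in P12 against P1 in the right panel, with the number of genes in brackets and all genes at the bottom. In P28 against P12 the bars to the right reach 90.0% for the 10 members, 83.3% for the further endothelial markers and 17.6% for junction partners, against 15.7% for all genes.

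Of 16 ligands, co-receptors and partners of the VEGF and angiopoietin receptors, 10 rose and 1 fell in P28 against P12. Ptprb, the phosphatase that acts on Tek and Cdh5, rose by 2.11 ± 0.23 and averaged 6.68 at P1, 6.91 at P12 and 9.02 at P28. The secreted protein gene Angptl4 rose by 1.66 ± 0.22, the lymphatic VEGF receptor gene Flt4 by 1.08 ± 0.21, and the co-receptor genes Nrp1 and Nrp2 by 0.88 ± 0.19 and 0.72 ± 0.21. Plcg1, a phospholipase that acts below Kdr in many cell types, fell by 0.52 (adjusted p = 0.041). Of the ligands themselves, named here after their values were seen, Vegfa rose by 0.55 ± 0.14, Vegfc by 1.02 ± 0.17 and Angpt2, which opposes Tek signalling in many settings, by 0.57 ± 0.15. Angpt1, the activating ligand of Tek, differed by 0.36 (adjusted p = 0.107). Its means of 4.56 at P1 and 4.52 at P12 were under the dim level, so its difference is that of a probe set near background.

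Among 9 other genes listed for the adrenomedullin and calcitonin receptor system, in which Ramp2 acts, 3 rose and 1 fell in P28 against P12. Ackr3, a scavenger receptor gene, rose by 2.05 ± 0.18, the Ramp2 relative Ramp1 by 1.85 ± 0.24 and the calcitonin receptor gene Calcr, also a satellite cell marker, by 0.59 ± 0.17, while the ligand gene Adm2 fell by 0.36. In P12 against P1, Ackr3 rose by 1.96 (adjusted p = 1.5e-05), the ligand gene Adm by 1.48 (adjusted p = 0.0003) and Calcr by 0.76 (adjusted p = 0.012). Adm did not pass in P28 against P12 (-0.33, adjusted p = 0.24). Named after their values were seen, Calcrl, the receptor that Ramp2 partners, averaged 5.70 at P1, 5.53 at P12 and 6.25 at P28 and did not pass in P28 against P12 (0.72, adjusted p = 0.098), and Ramp3 averaged 5.03, 5.08 and 5.07 at these ages.

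Of 26 transcription factors known in endothelial cells, 17 rose and 0 fell in P28 against P12, with a median of 1.06. Lmo2, a partner of GATA and Tal1 factors, rose by 3.30 ± 0.23, the flow-responsive factor genes Klf2 and Klf4 by 2.69 ± 0.21 and 2.27 ± 0.24, the hypoxia factor gene Epas1 by 2.56 ± 0.27 and the ETS factor gene Ets2 by 1.28 ± 0.20. Lmo2 also rose by 1.05 in P12 against P1. The ETS factors Erg and Fli1, named after their values were seen, passed as well: Erg rose by 1.60 ± 0.21, and Fli1, whose P12 mean of 4.38 was under the dim level, rose at least 2.81-fold by the bound used for Flt1. The Notch target gene Hey1 did not pass (0.18, adjusted p = 0.62).

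Of 48 further endothelial markers, 40 rose and 0 fell in P28 against P12, with a median of 1.39. The largest increases were those of the fatty acid transporter gene Cd36 and the water channel gene Aqp1 (both 3.46, ± 0.23 and ± 0.30), the adhesion receptor gene Adgrf5 (3.20 ± 0.22) and the surface lectin gene Cd93 (2.97 ± 0.25). Fabp4, a fatty acid binding protein of capillaries and fat cells, rose by 2.29 ± 0.27. Prox1, the lymphatic factor that muscle cells also make, rose by 1.06 in P12 against P1 and did not pass in P28 against P12 (-0.30, adjusted p = 0.28). Vwf, the clotting factor of larger vessels, named after its values were seen, did not pass (0.33, adjusted p = 0.318).

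Of 17 junction partners, 3 rose and 3 fell in P28 against P12. Cldn5, a tight junction gene, rose by 1.82 ± 0.29, F11r by 1.32 ± 0.27 and Jam2 by 0.40 ± 0.13. The genes that fell were Cdh2, the N-cadherin of muscle and nerve cells, by 1.92 ± 0.25, Ctnnb1, the catenin that binds cadherin tails in most cells, by 0.62 ± 0.19, and Ocln, whose P28 mean of 4.39 was under the dim level (adjusted p = 0.032). The count that fell was 1 without P12 replicate 1, P12 replicate 2, P28 replicate 2 or P28 replicate 3. Of 18 arterial and venous identity genes, 8 rose and 2 fell: Unc5b (1.37 ± 0.14), Cxcl12 (1.26 ± 0.23) and Acvrl1 (1.21 ± 0.17) rose most, and Notch1 and Jag2, which are not specific to vessels, fell by 0.90 ± 0.24 and 0.57 ± 0.19.

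Many markers of other cell types also rose in P28 against P12, and their part in the members' differences was not tested. In P28 against P1, 11 leukocyte, 5 erythroid, 7 fibroblast and 4 platelet markers rose, and 1 leukocyte marker, Cpa3, fell (20.1% and 16.4% of all genes). In P12 against P1, 0 markers of these lists rose, while 2 leukocyte, 3 fibroblast and 1 platelet marker fell (4.53% and 2.04% of all genes). Of 18 leukocyte markers, 13 rose and 0 fell in P28 against P12, and their summed level on the linear scale was 3129 to 3299 at P1, 1993 to 2692 at P12 and 16455 to 27998 at P28. Among them the neutrophil genes S100a9 and S100a8 rose by 5.78 ± 0.38 and 5.53 ± 0.45, and Lyz2, a myeloid lysozyme, by 4.04 ± 0.24. Csf1r, also on that list, did not pass in P28 against P1 (-0.005, adjusted p = 0.992) or in P28 against P12 (0.70, adjusted p = 0.117). Of 6 erythroid markers, 5 rose, with sums of 155 to 208 at P1, 209 to 307 at P12 and 1184 to 5998 at P28. Among them the red cell anion exchanger gene Slc4a1 rose by 5.65 ± 0.47.

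Of 14 mural cell markers (pericytes and smooth muscle), 8 rose and 0 fell, with sums of 7303 to 11214 at P1, 8519 to 12658 at P12 and 13230 to 14656 at P28. Rgs5, a pericyte gene, rose by 1.89 ± 0.27 and also by 1.07 in P12 against P1. Cspg4, on the same list, had differences of -0.74 in P12 against P1 (adjusted p = 0.010) and -1.02 in P28 against P1 (adjusted p = 2.0e-04). It did not pass in P28 against P12 (-0.28, adjusted p = 0.21). Set against P1, 3 mural markers were higher and 1 was lower at P12, while at P28 9 were higher and 1 was lower. Of 13 fibroblast markers, 8 rose and 0 fell in P28 against P12, with sums of 18240 to 29950, 18537 to 29536 and 30121 to 41212 at the 3 ages in order. The matrix gene Dcn rose by 2.39 ± 0.20, while the collagen genes Col1a1, Col1a2 and Col3a1 did not pass (-0.32, 0.11 and 0.01). Of 10 platelet markers, 4 rose, with sums of 903 to 1492, 600 to 714 and 1411 to 2408. Of 12 satellite cell markers, 3 rose and 0 fell with a median of -0.03, and their sums were 10399 to 15241, 14941 to 20639 and 21148 to 21729. Those that rose were Sdc4 (1.86 ± 0.16), Des (1.60 ± 0.15) and Calcr (0.59 ± 0.17). In P12 against P1, 4 of the 12 rose and 0 fell (4.53% and 2.04% of all genes). Means under the dim level at P28 were seen for 2 of the 6 erythroid, 2 of the 10 platelet and 1 of the 18 leukocyte markers, and for 0 of the mural, fibroblast and satellite cell markers.

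Within P28 these lists did not all follow the member mean, which deviated by -0.26, 0.32 and -0.06 from its age mean in replicates 1, 2 and 3. The further endothelial markers deviated by -0.18, 0.21 and -0.03 and the leukocyte markers by -0.39, 0.26 and 0.13. The erythroid markers deviated by 0.56, 0.47 and -1.03, the fibroblast markers by 0.33, -0.07 and -0.26 and the platelet markers by -0.08, 0.53 and -0.45. With 3 arrays these orders are descriptions of those arrays.

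The genes whose values over the 11 arrays were most like the mean of the members, outside the members, were Tm4sf1 (r = 0.992), Aqp1 (0.992), Tinagl1 (0.991), Slc3a2 (0.990), Robo4 (0.989), Lgals9 (0.989), Clic5 (0.989) and Eng (0.986). Aqp1, Robo4 and Eng, a co-receptor of transforming growth factor beta on endothelium, are on the list of further endothelial markers. Tm4sf1, a membrane protein gene, averaged 7.30 at P1, 7.53 at P12 and 10.82 at P28. These values of r include the difference between the ages. On deviations from the age means, which leave it out, the most alike were Usp15 (0.975), Pde4dip (0.972), Lpcat3 (0.965), Slc22a7 (0.955), Tm4sf1 (0.951), Rd3 (0.945), Cd36 (0.941) and Ckmt1 (0.937). Tm4sf1 was on both lists, and Slc22a7, Rd3 and Ckmt1 were low at every age, with means of 4.31 to 5.01.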

How the data were processed

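Age groups follow the arrays' titles, and 0 columns were left out. The authors deposited log2 values per probe set, made by RMA per the submitters' processing notes, which give no version or order for RMA, affy and Affymetrix Expression Console. P28 arrays had their minimum at 1.65 to 2.09 and the earlier ages at -0.78 to 0.48, so it is not known whether all arrays were processed together. The deposited log2 values were used as given, and array number limits the precision.

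The 64 manufacturer control probe sets were left out, and symbols came from the platform annotation (34958 probe sets with 1 symbol, 932 with several, 9211 with none). The test was limma 3.58.1 under R 4.3.3 (lmFit on group means over 11 arrays, eBayes, two-sided, Benjamini-Hochberg over 45037 probe sets, or over 18193 genes by their brightest probe set for lists), called at an adjusted p under 0.05, and the script was tested on simulated data. The members and the 12 lists (218 memberships, 11 not measured) were chosen with earlier results of these data known. Named from each list were the 3 brightest genes and up to 3 called genes with the largest change per direction and comparison, of which the text gives a selection, and the 8 genes most like the members by each measure. Same-numbered P1 and P12 arrays deviated together (r = 0.14 to 0.31, all over the 0.1 taken here to pair numbers), but so did arrays of other numbers in the same array set (0.14 to 0.25), and same-numbered P28 arrays did not (-0.12 to 0.09). Other scalings, filters, weights, blocks, an RNA 3' bias covariate and left-out arrays were tried.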

Additional observations from a re-analysis of the deposited data

Results flagged for a closer look

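In 4 of the 34 groups of 4 arrays (17 probe sets at P1 and at P12), 1 array stood apart from the other 3 by Dixon's test. Chance flags about 1 group in 20 where groups are independent, but these groups share arrays and genes. The share of all probe sets was not computed, so the count does not set the members apart. The Flt1 probe set 1454037_a_at was at 5.03 in P12 replicate 4 and at 4.24 to 4.32 in the other P12 arrays. The same P12 array was at 7.78 on the Egfl7 probe set 1451428_x_at, against 7.26 to 7.34 in the others, and at 5.67 on the Egfl7 probe set 1421335_a_at, below the 5.85 to 5.89 of the others. Emcn in P1 replicate 2 was at 4.54, below P1 replicates 1, 3 and 4 at 4.91 to 4.97.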

How the results depend on the processing

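In P28 against P12 and in P28 against P1, the 13 probe sets outside Egfl7 kept their direction and call in all 282 values of each comparison from 22 alternatives (log2 differences of 1.05 to 3.45 and 1.15 to 3.57, highest adjusted p = 0.0127 and 0.00467 by limma). With the replicate block, 13 of the 17 probe sets rose in P28 against P12, 15 in P28 against P1 and 0 in P12 against P1, as without it. With 1 probe set per gene, 9 of 10 rose in P28 against P1. Within array set 2, 5 of 17 rose in P12 against P1, with no share of all probe sets to set it against. With single arrays left out, 13 to 14 rose in P28 against P12, 14 to 17 in P28 against P1 and 0 in P12 against P1.

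Egfl7 calls in P28 against P1 changed with median centring (1421335_a_at, 0.45, passed) and with the 3' covariate (1435823_x_at, 0.64, did not). Differences in P12 against P1, none of which had passed, turned below 0 for Emcn with array weights (-0.047) and with the 3' covariate (-5.58e-05). Within array set 1 they did so for Emcn (-0.31), Tek (-0.15), Tie1 (-0.14), Flt1 1454037_a_at (-0.13) and 1440926_at (-0.067), Cdh5 1433956_at (-0.10), Egfl7 1451427_a_at and 1451428_x_at (both -0.094) and 1435823_x_at (-0.050), and Esam (-0.082), and within set 2 for Cdh5 1422047_at (-0.10). With single arrays left out, P12 against P1 ran from -0.20 to 0.18 for Emcn, -0.12 to 0.14 for Flt1 1454037_a_at, -0.080 to 0.21 for Cdh5 1422047_at, -0.042 to 0.24 for Flt1 1451756_at and -0.018 to 0.35 for Flt1 1419300_at, and P28 against P12 from -0.024 to 0.43 for Egfl7 1451427_a_at.

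Of the 125 other endothelial genes, quantile normalization gave 11 that fell in P28 against P1 (5 without it). Array set as a block gave 14 that rose and 2 that fell in P12 against P1 (8 and 1). Averaging the probe sets of each gene gave 4 that fell in P28 against P12 and 2 in P12 against P1 (7 and 1). With single arrays left out, P12 against P1 gave 6 to 13 that rose and 0 to 2 that fell, P28 against P12 gave 68 to 78 and 2 to 8, and P28 against P1 gave 73 to 89 and 3 to 9. The cause of these changes was not tested. The array set block, the array weights and the interaction cannot separate P28 from its muscles or a possible batch. The random block, the interaction, and the left-out arrays and blocks for lists were added after the data were seen.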
